A study of Homo sapiens with 12 samples.

Results

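The DNA replication genes described here are 30 genes chosen by symbol for their role in DNA replication, and all 30 had a named row among the 17687 genes measured. They comprise the MCM helicase (MCM2 to MCM7), the loading and firing factors MCM10, CDC6, CDT1 and CDC45, the 4 GINS subunits, the sliding clamp PCNA with its loader subunits RFC2 to RFC5, polymerase alpha-primase (POLA1, POLA2, PRIM1), the Okazaki fragment enzymes FEN1 and LIG1, the nucleotide supply enzymes RRM1, RRM2, TYMS and TK1, and the regulators CCNE2 and E2F1. No threshold on measured values entered the choice, but earlier results of these data were known when it was made. None of the 30 had a second row on the array. RNA came from LNCaPabl-Enza and LNCaPabl-Abi, 2 epithelial prostate cancer cell lines that the labels place with LNCaP, and each line was given either 100 nM dexamethasone, a synthetic glucocorticoid, or the solvent DMSO for 24 h. The 4 groups were LNCaPabl-Enza with dexamethasone (Enza_Dex), LNCaPabl-Enza with DMSO (Enza_Ctrl), LNCaPabl-Abi with dexamethasone (Abi_Dex) and LNCaPabl-Abi with DMSO (Abi_Ctrl), with 3 arrays each. The growth medium contained fetal calf serum, and the labels do not say whether replicates came from separate cultures, so the spread between arrays may be partly technical.

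In dividing cells the MCM helicase is loaded onto origins in G1 by CDC6 and CDT1 and is switched on at the start of S phase, when CDC45 and GINS join it. Polymerase alpha-primase then starts each new strand, the RFC complex loads PCNA, FEN1 trims the Okazaki fragments and LIG1 seals them. Many of these genes are transcribed at the G1 to S transition under E2F transcription factors, so their RNA levels follow the share of cells entering S phase in many cell types. In these bulk samples, fewer cells in S phase and less RNA per cell cannot be told apart.

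The values were the authors' deposited log2 values, and all differences below are on that log2 scale, where 1 unit is a doubling of the array value. One array stood apart from the other 11, Enza_Ctrl replicate 2. Its median correlation with the other arrays was 0.855, against 0.986 to 0.990 for the rest. Its poly-A spike-in rows averaged 3.46, against 7.07 to 8.10, its hybridization control rows averaged 13.94, against 10.49 to 11.43, and the housekeeping genes averaged 12.38, against 13.03 to 13.26. The members' counts and medians in each comparison are therefore given with 12 arrays and with the 11 that remain without it. A gene was called at a limma adjusted p under 0.05 (Benjamini-Hochberg over all 17687 genes). SGK1, a direct glucocorticoid target, measured 9.66, 9.99 and 13.20 in Enza_Dex, against 6.13, 6.17 and 6.89 in Enza_Ctrl, and 13.59, 13.29 and 13.83 in Abi_Dex, against 6.52, 6.20 and 5.82 in Abi_Ctrl. Dexamethasone arrays and DMSO arrays did not overlap for SGK1 in either line. The 8 prostate luminal markers measured averaged 11.14 to 12.40 on the 11 arrays. KRT8, KRT18, HOXB13, TMPRSS2, EPCAM and FOLH1 lay at 10.58 or higher on all 12. KLK3 was lower, between 6.68 and 7.08 in Abi_Ctrl and between 6.63 and 8.83 in Enza_Ctrl. KLK2 lay near the background probes under DMSO, between 3.93 and 5.32 in Abi_Ctrl and between 4.23 and 4.69 in Enza_Ctrl. The lists of 4 fibroblast, 4 immune and 4 endothelial markers averaged 4.80 to 5.44, 3.98 to 4.75 and 3.72 to 4.02 on the 11. Of the fibroblast markers COL1A2 was higher, at 7.42 to 8.63 on the 11.

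**Figure D1:**
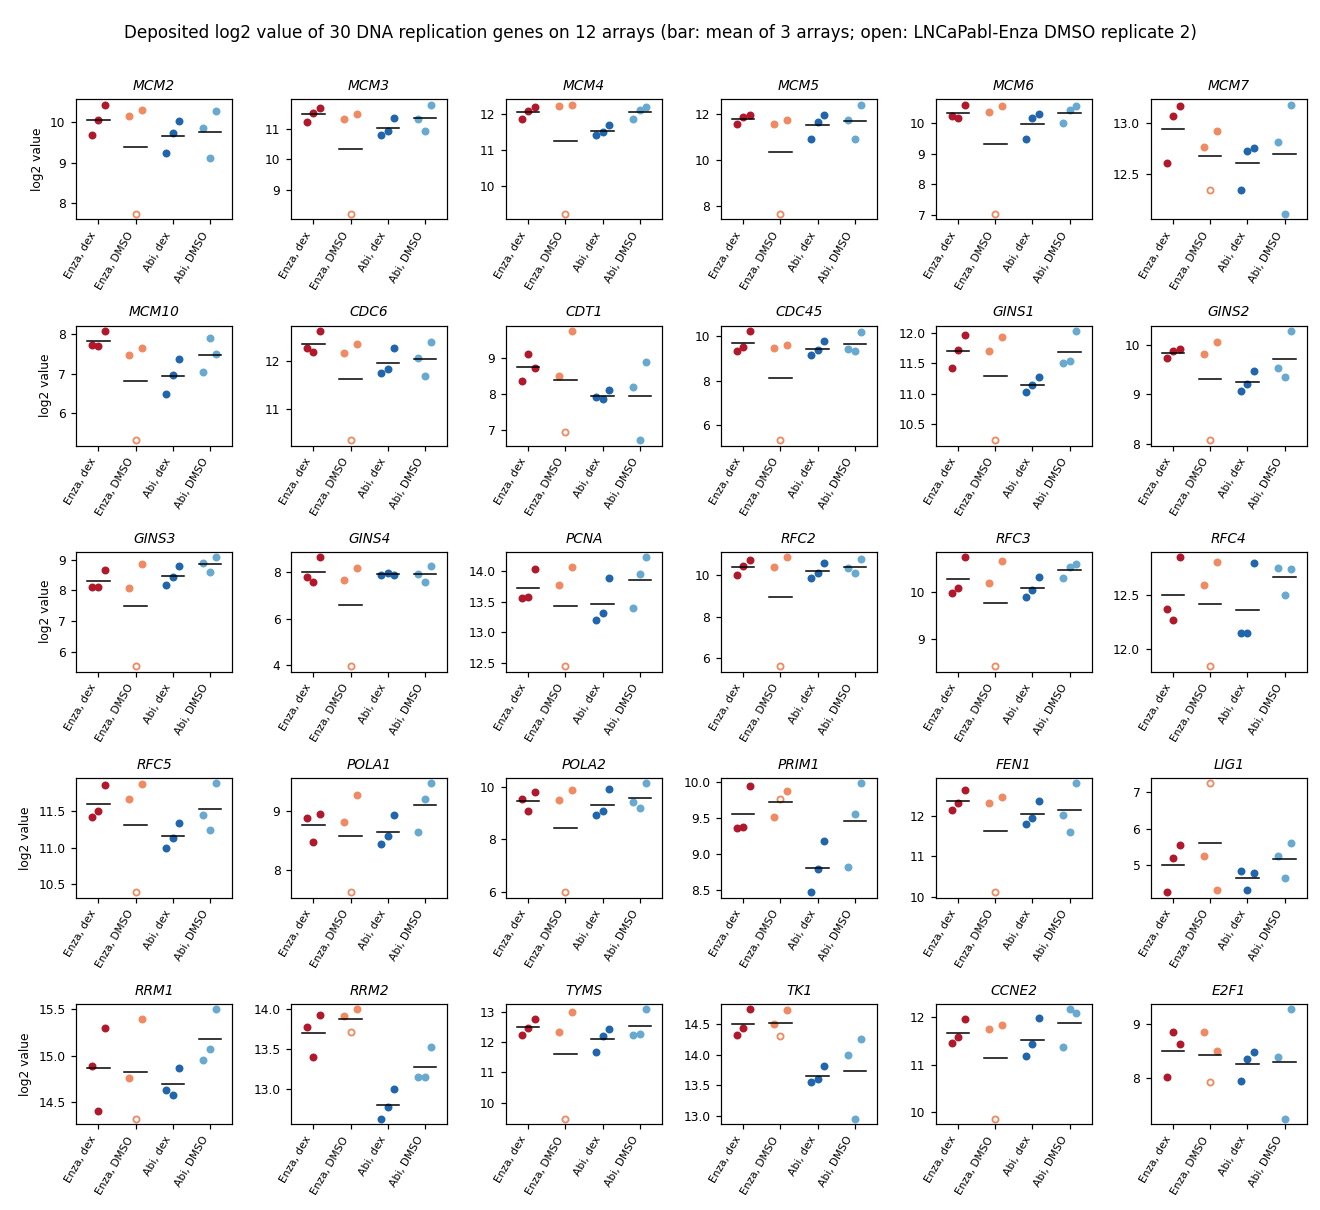
Each panel plots the deposited log2 value (y axis) of 1 replication gene on 12 arrays, in the order Enza_Dex, Enza_Ctrl, Abi_Dex and Abi_Ctrl, with points for arrays and a bar for the mean of 3 arrays. The open point is Enza_Ctrl replicate 2, which lies below both other Enza_Ctrl arrays for 28 of the 30 genes, and RRM2 and TK1 are the panels where both LNCaPabl-Enza groups lie above the LNCaPabl-Abi group of the same treatment.

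Promoter sequences are shown first, because these genes are textbook E2F targets and because the members that separated the 2 lines most clearly under dexamethasone can be read against their own start sites. RefSeq windows of 300 bases (250 before to 50 after the start, build GRCh38.p14) matched 26 of the 30 members and not CCNE2, GINS4, MCM4 and MCM5. An E2F-type motif was searched in 4 spellings, TTTCCCGC, TTTGGCGC, TTTCGCGC and TTTGCCGC, and the CCAAT box, the element bound by NF-Y, as CCAAT, each on both strands, with every match counted. The spellings of the E2F-type motif do not contain CCAAT. An E2F-type motif lay in the windows of 16 of 26 members (61.5%), against 762 of 14250 measured genes with a window (5.35%). A CCAAT box lay in 16 of 26 members (61.5%), against 42.3% of all genes with a window, and 9 members held both (34.6%, against 2.62%). FEN1, RFC2 and RFC4 held neither. The most E2F-type matches, 4, were in MCM6, and MCM2, MCM3, MCM7 and E2F1 held 2 each. A match is a description of the letters and not of a bound site.

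The 8 windows below are those of the 9 members whose Enza_Dex and Abi_Dex arrays did not overlap, without MCM4. They read 5′ to 3′ on the gene's own strand, and capitals mark an E2F-type motif or a CCAAT box in either orientation. The RRM2 window is chr2:10122489-10122788 on the plus strand, that of TK1 chr17:78187003-78187302 on the minus strand, that of MCM10 chr10:13161308-13161607 on the plus strand, that of GINS1 chr20:25407423-25407722 on the plus strand, that of GINS2 chr16:85688905-85689204 on the minus strand, that of CDT1 chr16:88803539-88803838 on the plus strand, that of PRIM1 chr12:56752274-56752573 on the minus strand and that of RFC5 chr12:118016453-118016752 on the plus strand. RRM2 and TK1 have 2 windows each, and the window with the most matches is shown.
RRM2: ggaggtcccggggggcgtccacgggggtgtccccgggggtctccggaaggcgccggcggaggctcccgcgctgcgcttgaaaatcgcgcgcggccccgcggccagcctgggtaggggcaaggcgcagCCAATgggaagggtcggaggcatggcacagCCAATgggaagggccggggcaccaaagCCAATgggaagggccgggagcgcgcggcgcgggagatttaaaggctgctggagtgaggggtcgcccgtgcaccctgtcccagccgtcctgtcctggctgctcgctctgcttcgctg
TK1: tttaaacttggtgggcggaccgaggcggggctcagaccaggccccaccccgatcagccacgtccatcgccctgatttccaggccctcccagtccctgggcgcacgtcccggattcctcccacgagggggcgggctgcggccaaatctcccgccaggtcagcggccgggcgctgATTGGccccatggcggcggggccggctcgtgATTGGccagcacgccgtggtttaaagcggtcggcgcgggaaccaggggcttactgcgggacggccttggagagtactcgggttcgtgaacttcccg
MCM10: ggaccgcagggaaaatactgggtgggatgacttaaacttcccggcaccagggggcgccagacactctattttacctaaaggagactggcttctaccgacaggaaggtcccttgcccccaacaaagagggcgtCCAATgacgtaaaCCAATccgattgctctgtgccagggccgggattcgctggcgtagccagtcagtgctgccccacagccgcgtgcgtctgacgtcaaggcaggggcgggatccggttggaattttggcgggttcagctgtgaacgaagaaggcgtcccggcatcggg
GINS1: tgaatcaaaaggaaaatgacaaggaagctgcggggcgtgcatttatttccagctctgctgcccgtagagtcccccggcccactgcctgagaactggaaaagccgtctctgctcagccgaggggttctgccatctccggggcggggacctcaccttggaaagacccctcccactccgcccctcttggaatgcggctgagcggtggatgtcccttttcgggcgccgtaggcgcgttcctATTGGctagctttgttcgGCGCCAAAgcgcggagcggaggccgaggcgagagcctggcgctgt
GINS2: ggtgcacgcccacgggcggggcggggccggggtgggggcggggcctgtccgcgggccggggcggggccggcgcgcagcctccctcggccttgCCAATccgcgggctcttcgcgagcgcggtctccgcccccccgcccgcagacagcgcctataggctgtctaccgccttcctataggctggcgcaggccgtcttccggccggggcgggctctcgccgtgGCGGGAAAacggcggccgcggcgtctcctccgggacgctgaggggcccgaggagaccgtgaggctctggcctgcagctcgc
CDT1: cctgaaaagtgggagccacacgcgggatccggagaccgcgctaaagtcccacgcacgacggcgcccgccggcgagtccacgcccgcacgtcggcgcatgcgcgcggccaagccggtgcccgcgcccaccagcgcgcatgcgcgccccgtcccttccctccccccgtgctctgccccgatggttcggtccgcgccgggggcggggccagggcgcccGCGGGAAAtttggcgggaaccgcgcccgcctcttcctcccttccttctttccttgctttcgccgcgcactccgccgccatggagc
PRIM1: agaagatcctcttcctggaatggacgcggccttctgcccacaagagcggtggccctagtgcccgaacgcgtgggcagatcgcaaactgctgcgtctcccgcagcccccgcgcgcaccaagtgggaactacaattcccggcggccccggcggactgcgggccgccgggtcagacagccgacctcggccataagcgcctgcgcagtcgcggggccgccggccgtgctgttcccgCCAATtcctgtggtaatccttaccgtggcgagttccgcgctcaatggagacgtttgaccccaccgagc
RFC5: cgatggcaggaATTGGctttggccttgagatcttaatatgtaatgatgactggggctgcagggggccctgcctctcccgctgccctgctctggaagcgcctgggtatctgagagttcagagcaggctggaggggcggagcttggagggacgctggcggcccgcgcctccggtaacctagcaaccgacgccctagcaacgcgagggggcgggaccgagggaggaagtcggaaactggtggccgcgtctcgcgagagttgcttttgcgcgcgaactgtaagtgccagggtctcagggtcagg

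RRM2 held 3 CCAAT boxes and no E2F-type match in this window, TK1 and MCM10 held 2 CCAAT boxes each, GINS1 and GINS2 held 1 of each motif, CDT1 held 1 E2F-type match, and PRIM1 and RFC5 held 1 CCAAT box each. Of these 8 windows, 3 held an E2F-type match.

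The comparison of the 2 lines under dexamethasone had more replication genes whose groups did not overlap than the other 3 comparisons of 2 groups. It rests on the Enza_Dex and Abi_Dex arrays, and in the limma fit Enza_Ctrl replicate 2 enters it only through the pooled spread. Whether that array also entered the other arrays' deposited values through joint processing was not tested. Of the 30 genes, 29 were higher in Enza_Dex than in Abi_Dex, with a median difference of 0.35, while 48.6% of all genes were higher, with a median of -0.01. The exception was GINS3, a GINS subunit, at -0.18 ± 0.25 (SE on 11 arrays, as for every ± below that follows a difference unless 12 are named). Enza_Dex lay above Abi_Dex with no overlap for 9 genes, MCM4, MCM10, CDT1, GINS1, GINS2, RFC5, PRIM1, RRM2 and TK1, that is 30% of them, and 9.43% of all genes did so. With 12 arrays limma called none of the 30, and 0.277% of all genes, with 3 of the 30 at an unadjusted p under 0.05, as were 4.14% of all genes. With 11 arrays it called RRM2 and no other member, and 2.28% of all genes, with 8 of the 30 (26.7%) at an unadjusted p under 0.05, as were 11.5% of all genes. Without Abi_Dex replicate 1 the median was 0.18 with 26 genes higher, and without Enza_Dex replicate 3 it was 0.20 with 23 higher.

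RRM2, the small subunit of ribonucleotide reductase which makes deoxyribonucleotides, measured 13.78, 13.40 and 13.93 in Enza_Dex, against 12.63, 12.77 and 13.00 in Abi_Dex. The lowest Enza_Dex array lay above the highest Abi_Dex array. RRM2 averaged 13.70 ± 0.27 in Enza_Dex and 12.80 ± 0.18 in Abi_Dex (SD, n = 3 each), and limma put the difference at 0.90 ± 0.19 (SE, 1.87-fold) with a Benjamini-Hochberg adjusted p of 0.0220 on 11 arrays and 0.242 on 12. The call was lost without some second arrays: limma's adjusted p was 0.121 without Abi_Dex replicate 1, 0.0929 without Abi_Dex replicate 2, 0.110 without Enza_Dex replicate 1 and 0.0980 without Enza_Dex replicate 3. It was between 0.0172 and 0.0311 without each of the other 7 arrays.

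TK1, the cytosolic thymidine kinase that salvages thymidine, measured 14.33, 14.45 and 14.74 in Enza_Dex, against 13.55, 13.60 and 13.81 in Abi_Dex, again without overlap. Its difference was 0.85 ± 0.27 (limma adjusted p = 0.150, 11 arrays). RRM1, the large subunit of ribonucleotide reductase, and TYMS, which makes thymidylate, differed by 0.17 ± 0.25 and 0.38 ± 0.27, and their groups overlapped. TYMS measured 12.24, 12.46 and 12.76 in Enza_Dex, against 11.68, 12.20 and 12.43 in Abi_Dex.

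Among loading and firing factors, MCM10, which helps to activate the helicase, measured 7.71, 7.69 and 8.07 in Enza_Dex, against 6.50, 6.97 and 7.37 in Abi_Dex. Its groups did not overlap, and the difference was 0.88 ± 0.25 (limma adjusted p = 0.0947 on 11 arrays and 1 on 12). CDT1, which loads the helicase together with CDC6, differed by 0.78 ± 0.43, and its groups did not overlap either. CDC6 measured 12.26, 12.18 and 12.61 in Enza_Dex, against 11.74, 11.82 and 12.25 in Abi_Dex, where the highest Abi_Dex array lay within the Enza_Dex range. CDC45, which joins the helicase at firing, differed by 0.25 ± 0.27.

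All 6 helicase subunits were higher in Enza_Dex, by 0.28 to 0.51. MCM4 measured 11.87, 12.07 and 12.19 in Enza_Dex, against 11.41, 11.50 and 11.69 in Abi_Dex, and was the 1 helicase subunit without overlap, at 0.51 ± 0.17 (limma adjusted p = 0.200, 11 arrays). MCM2 measured 9.69, 10.06 and 10.44 in Enza_Dex, against 9.24, 9.74 and 10.03 in Abi_Dex. MCM5 measured 11.54, 11.84 and 11.94 in Enza_Dex, against 10.90, 11.65 and 11.92 in Abi_Dex. The ranges of MCM2 and MCM5 overlapped between the lines. Of the GINS subunits, GINS2 measured 9.72, 9.87 and 9.92 in Enza_Dex, against 9.06, 9.20 and 9.48 in Abi_Dex, a difference of 0.59 ± 0.23, and GINS1 differed by 0.56 ± 0.20, both without overlap. GINS4 differed by 0.10 ± 0.26.

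PCNA, the ring that holds polymerases on DNA, measured 13.57, 13.58 and 14.04 in Enza_Dex, against 13.21, 13.31 and 13.89 in Abi_Dex, with overlap and a difference of 0.26 ± 0.25. RFC3 of its loader measured 9.98, 10.08 and 10.72 in Enza_Dex, against 9.88, 10.04 and 10.30 in Abi_Dex. The groups overlapped for RFC3, while RFC5 was the loader subunit without overlap, at 0.44 ± 0.20. POLA2, the accessory subunit of polymerase alpha, measured 9.54, 9.07 and 9.79 in Enza_Dex, against 8.92, 9.07 and 9.92 in Abi_Dex, and PRIM1, the catalytic primase subunit, differed by 0.74 ± 0.28 without overlap. POLA1 differed by 0.12 ± 0.24, FEN1 by 0.32 ± 0.27 and LIG1 by 0.36 ± 0.34. LIG1 lay between 4.24 and 5.55 in Enza_Dex and between 4.31 and 4.83 in Abi_Dex, near the background probes. Its differences, here and in the other comparisons, therefore have no exact size. Of the regulators, E2F1, a transcription factor that drives S-phase genes, measured 8.01, 8.84 and 8.62 in Enza_Dex, against 7.95, 8.35 and 8.48 in Abi_Dex. CCNE2, a cyclin of the G1 to S transition, measured 11.46, 11.59 and 11.96 in Enza_Dex, against 11.18, 11.43 and 11.98 in Abi_Dex, and both regulators overlapped.

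**Figure D2:**
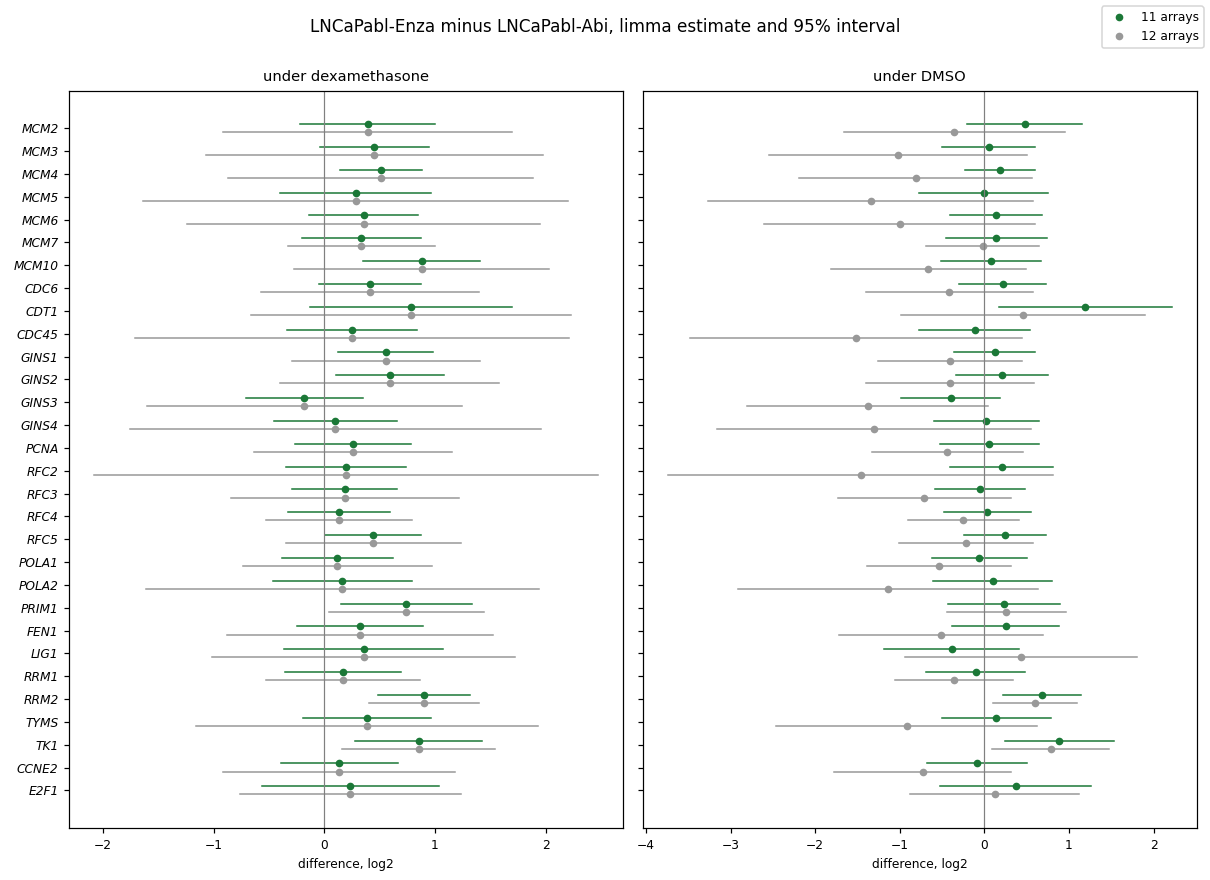
The LNCaPabl-Enza minus LNCaPabl-Abi difference (x axis, log2) is plotted for each of the 30 genes under dexamethasone (left) and under DMSO (right), with points for limma estimates, lines for 95% intervals, green for 11 arrays and grey for 12. Under dexamethasone 29 of 30 points lie above 0 with either set, and under DMSO 22 lie above 0 with 11 arrays and 6 with 12.

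Under DMSO the difference between the lines was set by whether Enza_Ctrl replicate 2 was used. With 12 arrays 24 of the 30 genes were lower in Enza_Ctrl than in Abi_Ctrl, with a median of -0.48, and with 11 arrays 22 were higher, with a median of 0.13 (all genes -0.03 and 0.00). With dim genes left out, 35.6% of all genes were higher on 12 arrays, with a median of -0.22. RRM2 and TK1 were higher in Enza_Ctrl without overlap on 12 arrays, that is 6.67% of the members, against 5.95% of all genes. MCM4 joined them on 11 arrays, where Enza_Ctrl has 2 arrays, which made 10% of the members, against 11.5% of all genes. With either set the members' share is near that of all genes. Limma called none of the 30 with either set, against 0.266% of all genes with 12 arrays and 1.29% with 11, and 2 members (6.67%) with 12 arrays and 3 (10%) with 11 had an unadjusted p under 0.05, as did 11.3% and 11.1% of all genes.

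RRM2 measured 13.91, 13.71 and 14.00 in Enza_Ctrl, against 13.15, 13.15 and 13.53 in Abi_Ctrl. All Enza_Ctrl arrays, replicate 2 included at 13.71, lay above all Abi_Ctrl arrays, and the difference was 0.68 ± 0.22 (limma adjusted p = 0.190, 11 arrays) or 0.60 ± 0.23 on 12. TK1 measured 14.51, 14.32 and 14.73 in Enza_Ctrl, against 14.00, 12.96 and 14.25 in Abi_Ctrl, a difference of 0.89 ± 0.30 (limma adjusted p = 0.225, 11 arrays). The lowest TK1 value of Enza_Ctrl and the highest of Abi_Ctrl were 14.32 and 14.25, so the groups were separated narrowly. CDT1 had the largest difference of the 30 on 11 arrays, 1.19 ± 0.48 (limma adjusted p = 0.339), and its groups overlapped. The line comparisons under dexamethasone and under DMSO use different arrays but share the pooled spread.

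In LNCaPabl-Abi, 28 of the 30 genes were lower with dexamethasone than with DMSO and 2 were not, CDT1 at 0.03 and GINS4 at 0.00. The median difference was -0.34, against 0.00 for all genes, of which 50.4% were higher. Limma called none of the 30 with either set of arrays, and 0.0283% of all genes with 12 and 0.141% with 11. No member had an unadjusted p under 0.05 with 12 arrays and 4 (13.3%) had one with 11, against 1.36% and 7.09% of all genes. Without Abi_Ctrl replicate 3 the median was -0.19 with 20 genes lower, and without Abi_Dex replicate 1 it was -0.20 with 22 lower. Abi_Dex lay below Abi_Ctrl without overlap for 4 of the 30, MCM4, GINS1, RRM1 and RRM2, and for 6.01% of all genes.

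MCM4 measured 11.41, 11.50 and 11.69 in Abi_Dex, against 11.86, 12.09 and 12.20 in Abi_Ctrl. Its groups did not overlap, and the difference of -0.52 ± 0.17 had the smallest p of the members on 11 arrays (limma adjusted p = 0.577). RRM2 measured 12.63, 12.77 and 13.00 in Abi_Dex, against 13.15, 13.15 and 13.53 in Abi_Ctrl. This difference of -0.47 ± 0.19 (limma adjusted p = 0.676, 11 arrays) had the smallest p of the members on 12 arrays. The largest difference was in PRIM1, -0.64 ± 0.28, followed by GINS1 at -0.55 ± 0.20, and PRIM1 overlapped between the groups. RRM1 differed by -0.48 ± 0.25.

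The other genes given array by array overlapped between Abi_Dex and Abi_Ctrl. PCNA measured 13.21, 13.31 and 13.89 in Abi_Dex, against 13.40, 13.96 and 14.23 in Abi_Ctrl, a difference of -0.40 ± 0.25. CDC6 measured 11.74, 11.82 and 12.25 in Abi_Dex, against 12.04, 11.68 and 12.38 in Abi_Ctrl. The Abi_Dex values of CDC6 lay within the Abi_Ctrl range. GINS2 measured 9.06, 9.20 and 9.48 in Abi_Dex, against 9.52, 9.34 and 10.28 in Abi_Ctrl. TYMS measured 11.68, 12.20 and 12.43 in Abi_Dex, against 12.23, 12.25 and 13.07 in Abi_Ctrl. The highest Abi_Dex array of GINS2 and of TYMS lay among the Abi_Ctrl values. MCM10 measured 6.50, 6.97 and 7.37 in Abi_Dex, against 7.04, 7.89 and 7.49 in Abi_Ctrl. MCM2 measured 9.24, 9.74 and 10.03 in Abi_Dex, against 9.85, 9.12 and 10.28 in Abi_Ctrl. MCM5 measured 10.90, 11.65 and 11.92 in Abi_Dex, against 11.71, 10.89 and 12.38 in Abi_Ctrl. The lowest MCM2 and MCM5 values of the 2 groups were in Abi_Ctrl. RFC3 measured 9.88, 10.04 and 10.30 in Abi_Dex, against 10.28, 10.52 and 10.58 in Abi_Ctrl. POLA2 measured 8.92, 9.07 and 9.92 in Abi_Dex, against 9.44, 9.19 and 10.14 in Abi_Ctrl. Both overlapped through the highest Abi_Dex array. TK1 measured 13.55, 13.60 and 13.81 in Abi_Dex, against 14.00, 12.96 and 14.25 in Abi_Ctrl. CCNE2 measured 11.18, 11.43 and 11.98 in Abi_Dex, against 11.37, 12.17 and 12.10 in Abi_Ctrl. E2F1 measured 7.95, 8.35 and 8.48 in Abi_Dex, against 8.38, 7.26 and 9.26 in Abi_Ctrl. The Abi_Dex values of TK1 and E2F1 lay inside the Abi_Ctrl range. On 11 arrays MCM2 differed by -0.08 ± 0.29, MCM5 by -0.17 ± 0.32, TK1 by -0.08 ± 0.27, CCNE2 by -0.35 ± 0.25, RFC3 by -0.39 ± 0.22, POLA2 by -0.28 ± 0.29 and E2F1 by -0.04 ± 0.37. Over the 30 members the median size of the difference was 0.34, while the members' median range was 0.54 in Abi_Dex and 0.84 in Abi_Ctrl, and 3 of 30 members (10%) differed by more than both of their own ranges, as did 5.68% of all genes.

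**Figure D3:**
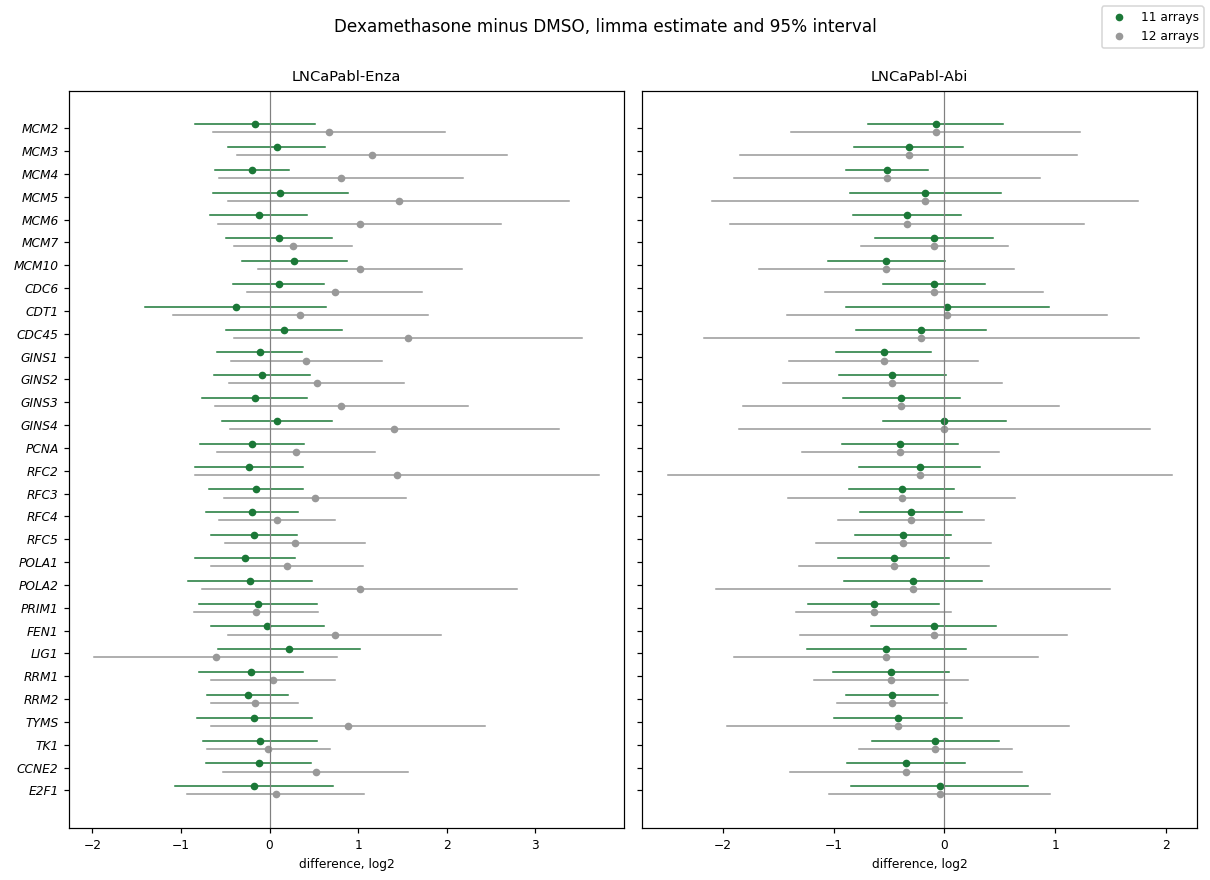
The dexamethasone minus DMSO difference (x axis, log2) is plotted for each of the 30 genes in LNCaPabl-Enza (left) and LNCaPabl-Abi (right), with points for limma estimates, lines for 95% intervals, green for 11 arrays and grey for 12. In LNCaPabl-Abi 28 points lie below 0 with either set, and in LNCaPabl-Enza 22 lie below 0 with 11 arrays and 26 above 0 with 12.

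In LNCaPabl-Enza the direction of the dexamethasone difference turned with the single array. With 12 arrays 26 of the 30 genes were higher in Enza_Dex than in Enza_Ctrl, with a median of 0.53, and with 11 arrays 22 were lower, with a median of -0.14 (all genes 0.06 and 0.00). With dim genes left out, 67.3% of all genes were higher on 12 arrays, with a median of 0.22. Limma called none of the 30 and 0% of all genes with either set, and no member had an unadjusted p under 0.05, against 3.96% of all genes with 12 arrays and 3% with 11. MCM10 alone was higher in Enza_Dex without overlap, with both sets. That is 3.33% of the members, below the 3.96% of all genes on 12 arrays and the 7.93% on 11. No member was lower without overlap on 12 arrays, where 4.77% of all genes were. MCM4 alone was lower without overlap on 11 arrays, again 3.33% of the members, against 7.93% of all genes.

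MCM10 measured 7.71, 7.69 and 8.07 in Enza_Dex, against 7.46, 5.33 and 7.64 in Enza_Ctrl. The gap between the lowest Enza_Dex and the highest Enza_Ctrl array was narrow, and the difference was 0.28 ± 0.28 on 11 arrays and 1.02 ± 0.53 on 12 (limma adjusted p = 1.00 and 0.523). PCNA measured 13.57, 13.58 and 14.04 in Enza_Dex, against 13.78, 12.44 and 14.06 in Enza_Ctrl, which gave -0.20 ± 0.27 on 11 arrays and 0.30 ± 0.41 on 12. CDC45 was at 1.56 ± 0.89 on 12 arrays and at 0.16 ± 0.31 on 11. On Enza_Ctrl replicate 2 both MCM10 (5.33) and CDC45 (5.32) lay near the background probes' mean of 5.50, so their 12-array values have no exact size. RRM2 measured 13.78, 13.40 and 13.93 in Enza_Dex, against 13.91, 13.71 and 14.00 in Enza_Ctrl, and was lower with both sets, at -0.25 ± 0.22 on 11 arrays and -0.17 ± 0.23 on 12.

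Enza_Ctrl replicate 2 was the lowest of the 6 LNCaPabl-Enza arrays for each of the genes that follow. MCM4 measured 11.87, 12.07 and 12.19 in Enza_Dex, against 12.23, 9.23 and 12.25 in Enza_Ctrl. MCM2 measured 9.69, 10.06 and 10.44 in Enza_Dex, against 10.15, 7.72 and 10.31 in Enza_Ctrl. MCM5 measured 11.54, 11.84 and 11.94 in Enza_Dex, against 11.57, 7.65 and 11.73 in Enza_Ctrl. Apart from that array, the helicase subunits MCM2 and MCM5 overlapped, and MCM4 did not. CDC6 measured 12.26, 12.18 and 12.61 in Enza_Dex, against 12.15, 10.36 and 12.35 in Enza_Ctrl. GINS2 measured 9.72, 9.87 and 9.92 in Enza_Dex, against 9.81, 8.07 and 10.05 in Enza_Ctrl. RFC3 measured 9.98, 10.08 and 10.72 in Enza_Dex, against 10.18, 8.43 and 10.65 in Enza_Ctrl. These 3 genes overlapped as well. POLA2 measured 9.54, 9.07 and 9.79 in Enza_Dex, against 9.50, 5.98 and 9.87 in Enza_Ctrl. TYMS measured 12.24, 12.46 and 12.76 in Enza_Dex, against 12.32, 9.48 and 13.00 in Enza_Ctrl. CCNE2 measured 11.46, 11.59 and 11.96 in Enza_Dex, against 11.75, 9.86 and 11.84 in Enza_Ctrl. At least 1 other Enza_Ctrl array lay within the Enza_Dex range in each of them. TK1 measured 14.33, 14.45 and 14.74 in Enza_Dex, against 14.51, 14.32 and 14.73 in Enza_Ctrl, and E2F1 measured 8.01, 8.84 and 8.62 in Enza_Dex, against 8.84, 7.92 and 8.50 in Enza_Ctrl, with overlap in both.

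The replication genes were much lower on Enza_Ctrl replicate 2. They averaged 8.90 there, against 10.19 to 11.17 on the other 11 arrays, and the 25 mitosis genes averaged 10.89, against 11.39 to 12.49. Of the 30, 28 lay below both other Enza_Ctrl arrays, against 48.7% of all genes. Below the range of the other 11 arrays lay 23 members, against 40.5% of all genes. The median gap to the mean of replicates 1 and 3 was -1.95, against -0.10 for all genes. For 22 members the value lay more than 1 below that mean, a count not made for all genes. The values of that array were also less spread, with an SD over all genes of 2.76, against 3.40 to 3.45 on the other 11. Most members are bright genes, averaging 10.19 to 11.17 on the other 11 arrays, where the median of all genes was 6.56 to 6.70. The shares over all genes are therefore not matched for brightness. The fibroblast, immune and endothelial lists averaged 5.92, 5.31 and 5.53 on that array, and its background probes 5.50, against 4.50 to 4.60 on the other 11. RFC2 (5.62), CDC45 (5.32), GINS4 (3.96), POLA2 (5.98), GINS3 (5.52) and MCM10 (5.33) lay near or below the background probes' mean of that array. Their gaps of -5.01, -4.21, -3.99, -3.71, -2.94 and -2.22 therefore have no exact size. The gap was small for RRM2 (-0.24), TK1 (-0.30) and PRIM1 (0.08), and LIG1, the ligase that seals Okazaki fragments, was higher by 2.47, but it lay between 4.24 and 5.62 on the other 11 arrays, near their background probes. The part of these marker and control values, and of the narrower spread, in the gaps was not tested.

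**Figure D4:**
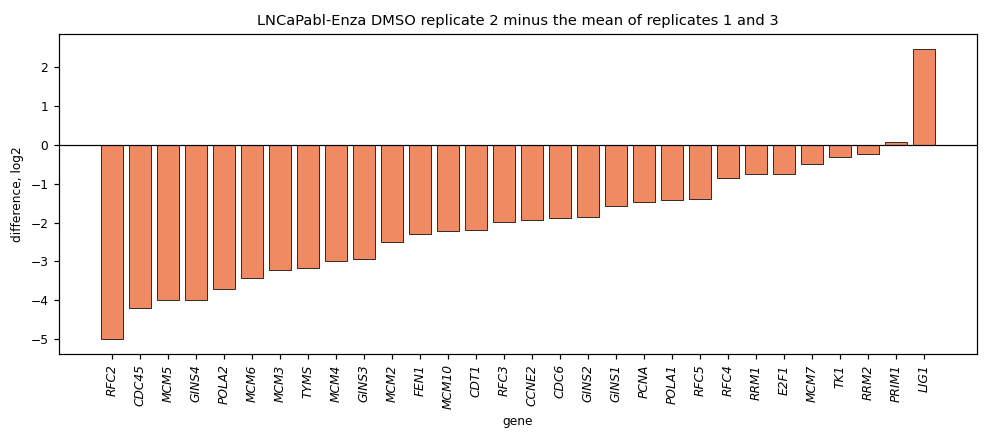
Bars show, for each of the 30 genes, the log2 value on Enza_Ctrl replicate 2 minus the mean of Enza_Ctrl replicates 1 and 3 (y axis). The bars run from -5.01 for RFC2 to 2.47 for LIG1, and 28 of them lie below 0. RFC2, CDC45, GINS4, POLA2, GINS3 and MCM10 on that array, and LIG1 on the others, were near or below the background probes' mean.

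The difference between the 2 dexamethasone responses (LNCaPabl-Enza minus LNCaPabl-Abi) uses all 4 groups and shares every array with the comparisons above. It was above 0 for 29 of the 30 genes with 12 arrays, with a median of 0.85, and for 25 with 11 arrays, with a median of 0.22, against medians of 0.04 and 0.00 for all genes. Limma called none of the 30 and 0% of all genes with either set, and no member with 12 arrays and 1 with 11, MCM10, had an unadjusted p under 0.05, against 1.5% and 3.2% of all genes, so that 1 of 30 (3.33%) is near the background. MCM10 had the smallest p with both sets, with a difference between responses of 0.80 ± 0.37 on 11 arrays and 1.54 ± 0.74 on 12 (limma adjusted p = 0.999 and 0.793). GINS1 differed by 0.44 ± 0.30 on 11 arrays.

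The members moved together from array to array. Over the 11 arrays, after subtracting group means, the median pairwise Pearson r between members was 0.678, and 28 of 30 had an r over 0.5 with the mean of the other members, as did 15.6% of all genes with the members' mean. RFC5 (0.99), CDC45 (0.963), FEN1 (0.951) and MCM3 (0.949) followed the mean most closely, and LIG1 (0.436) and MCM10 (0.392) least. The points share arrays and their normalization. In each group the array numbered 3 was the highest for most members, 28 in Enza_Dex, 28 in Enza_Ctrl, 28 in Abi_Dex and 27 in Abi_Ctrl, against 27.9% to 36.3% of all genes. The members' mean was 10.60 to 11.11 in Enza_Dex, 8.90 to 11.04 in Enza_Ctrl, 10.19 to 10.72 in Abi_Dex and 10.45 to 11.17 in Abi_Ctrl. What the arrays numbered 3 share is not given in the labels.

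**Figure D5:**
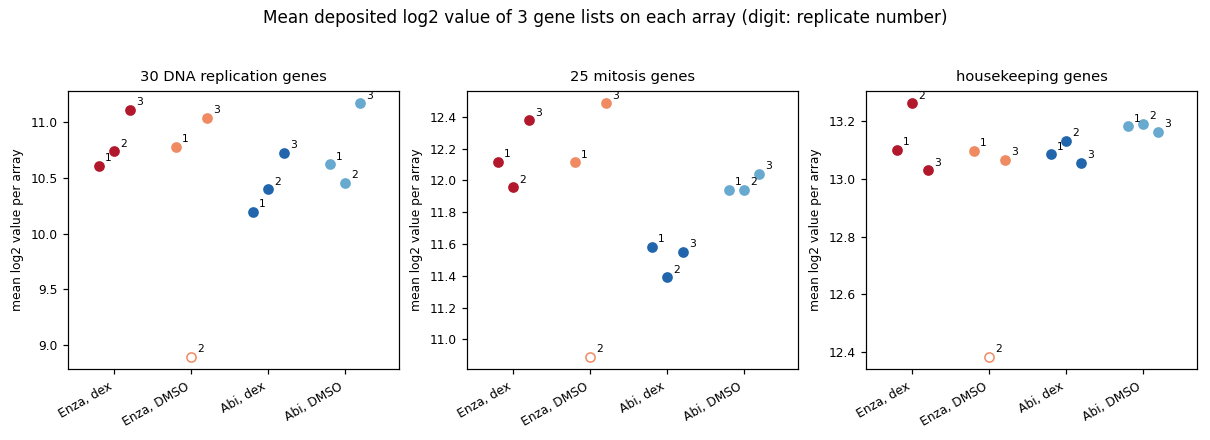
The mean log2 value per array (y axis) of the 30 replication genes, the 25 mitosis genes and the 10 housekeeping genes is plotted for Enza_Dex, Enza_Ctrl, Abi_Dex and Abi_Ctrl, with 1 point an array and its replicate number beside it. The replication genes' mean is highest on replicate 3 of each group, and the open point, Enza_Ctrl replicate 2, is the lowest of 12 in every panel.

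Other genes of the replication programme, from lists set beside the members, were read in the same fits. Under dexamethasone 16 of 20 other licensing and initiation genes, 20 of 23 other polymerase and fork genes, 8 of 11 other nucleotide supply genes and 18 of 24 E2F, RB, cyclin and CDK genes were higher in LNCaPabl-Enza, with medians of 0.27, 0.35, 0.20 and 0.24. All 25 mitosis genes were higher as well, with a median of 0.63. Enza_Dex lay above Abi_Dex without overlap for 20%, 34.8%, 45.5% and 33.3% of the lists in that order, and for 84% of the mitosis genes. The share was 30% of the members and 9.43% of all genes. It lay below without overlap for 0%, 4.35%, 9.09% and 12.5% of the lists, 0% of the mitosis genes and 10.7% of all genes. On 11 arrays limma called 2 of the regulators, CDC25A (0.84, adjusted p = 0.0464), a phosphatase that activates CDKs, and CDKN1B (0.74, adjusted p = 0.0420), a CDK inhibitor. It also called 2 mitosis genes, CDK1 (0.71, adjusted p = 0.0464) and KIF20A (0.87, adjusted p = 0.0475), and none of the other 3 lists. DBF4 (0.79), POLE3 (0.57) and DTYMK (0.74) had the smallest p of those lists. On 12 arrays none of the 5 lists held a call. MKI67, a proliferation marker, differed by 0.40 and CDKN1A, a CDK inhibitor, by -0.78, neither called, and SGK1 by -2.62 (limma adjusted p = 0.0416 on 11 arrays, 0.356 on 12).

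With dexamethasone in LNCaPabl-Abi, 19 of the 20 other licensing genes, 17 of 23 fork genes, 8 of 11 nucleotide genes, 14 of 24 regulators and 25 of 25 mitosis genes were lower, with medians of -0.36, -0.18, -0.18, -0.08 and -0.50, and limma called none of them with either set. Abi_Dex lay below Abi_Ctrl without overlap for 15%, 17.4%, 27.3%, 16.7% and 64% of these lists, 13.3% of the members and 6.01% of all genes. It lay above without overlap for 0%, 4.35%, 9.09%, 0% and 0% of the lists and 6.26% of all genes. On 11 arrays the smallest p of each list belonged to ORC6 (-0.88), ATAD5 (-0.66), DCK (-0.58), CCNA2 (-0.76) and NDC80 (-0.85). MKI67 differed by -0.53 and CDKN1A by 0.11, while SGK1 differed by 7.39 (limma adjusted p = 5.08e-05). In LNCaPabl-Enza on 11 arrays, 17 of 20, 13 of 23, 3 of 11, 15 of 24 and 23 of 25 genes of these 5 lists were lower with dexamethasone, and none was called. TIMELESS (-0.37), PRIM2 (-0.59), SAMHD1 (-0.24), CDK6 (0.36) and DLGAP5 (-0.35) had the smallest p, MKI67 differed by -0.08, CDKN1A by -0.28 and SGK1 by 4.43 (limma adjusted p = 0.269). On 12 arrays all of these lists but nucleotide supply, which kept its count, turned, with 14 of 20, 19 of 23, 8 of 11, 17 of 24 and 21 of 25 genes higher with dexamethasone, and none was called. There MKI67 was at 0.43 and CDKN1A at 0.37, opposite in sign to the values on 11 arrays, SGK1 was at 4.55, and MCM9 (0.61), CHTF18 (0.72), GART (0.59), E2F7 (-0.50) and BUB1B (-0.45) had the smallest p.

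Under DMSO on 11 arrays, 10 of 20, 14 of 23, 5 of 11, 15 of 24 and 24 of 25 genes of the same lists were higher in LNCaPabl-Enza, and none was called. RECQL4 (1.06), RNASEH2A (0.67), IMPDH2 (0.54), MYC (0.85) and CDK1 (0.53) had the smallest p, MKI67 differed by -0.05, CDKN1A by -0.39 and SGK1 by 0.33. On 12 arrays 14 of 20, 15 of 23, 6 of 11, 14 of 24 and 16 of 25 genes were lower in LNCaPabl-Enza, none was called, and MKI67 was at -0.56, CDKN1A at -1.04 and SGK1 at 0.22. RECQL4 (0.94), TOP1 (-1.02), RRM2B (-0.57), CDC25A (0.68) and AURKA (0.65) had the smallest p there. For the difference between the responses on 11 arrays, ORC6 (0.83), ATAD5 (0.64), DCK (0.62), CCNA2 (0.61) and NDC80 (0.71) had the smallest p. MKI67 was at 0.45, CDKN1A at -0.39 and SGK1 at -2.96 in that contrast, and none was called. On 12 arrays MKI67 was at 0.96, CDKN1A at 0.26 and SGK1 at -2.84, again without a call.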

How the data were processed

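Total RNA from the 2 lines was labelled with a WT PLUS kit and measured on 12 single-colour arrays, per the labels' protocols. Each array has a table of deposited log2 values with a row for every transcript cluster. RMA, limma and Affymetrix Expression Console are listed, with no version, in the submitters' processing notes. RMA pulls arrays to a common distribution, so a shift shared by most genes may be reduced or lost. The values of the genes used here still differed between arrays. Their SD was 2.76 on Enza_Ctrl replicate 2, against 3.40 to 3.45 on the other 11, and their median 6.41, against 6.56 to 6.70. Values between 1.66 and 18.6 are a wide span for RMA output, so differences hold on the deposited scale only. The genome build is not given in the sources used here.

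Symbols came from the platform annotation: 17709 of 24351 rows had 1 symbol, 6642 had none and none had several. The brightest row was kept for each symbol, leaving 17687 genes. Groups and replicate numbers came from titles. No pair of arrays was identical, and the number of arrays limits precision. limma 3.58.1 in R 4.3.3 fitted 4 group means (lmFit, eBayes) with no filter and no block, and p-values were adjusted by Benjamini-Hochberg over all genes of a comparison. Intervals are 95%. The fit was tested on simulated data.

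The members and lists were chosen with earlier results of these data known. All members may be named. Values by array are given for 12 members set by role and for those with the smallest p or a call, and of other lists called genes (up to 4 each) or else the gene with the smallest p, with SGK1, MKI67 and CDKN1A throughout. Of 150 listed companion genes 138 were measured, and the rest are not analysed here. Alternatives were each array left out, a replicate block, new quantile normalization, median centring, a filter on dim genes, separate fits, a variance trend and array weights. Leaving out a second array, and counting overlaps with and without Enza_Ctrl replicate 2, were chosen after seeing the data.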

Additional observations from a re-analysis of the deposited data

How the results depend on the processing

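The number of arrays and the Enza_Ctrl arrays set most of the limits. With each array left out in turn, the median difference of the members ran from 0.18 to 0.49 between the lines under dexamethasone, from -0.51 to -0.19 with dexamethasone in LNCaPabl-Abi, from -0.14 to 0.99 with dexamethasone in LNCaPabl-Enza, from -0.85 to 0.13 between the lines under DMSO and from 0.22 to 1.23 for the difference between the responses. The turned signs came without Enza_Ctrl replicate 2. New quantile normalization gave medians of 0.12, -0.16 and 0.46 for the last 3, with 21 members higher in the first of them and 11 in the second, against 26 and 6. Array weights, which gave that array 0.032, gave medians of -0.13, 0.068 and 0.29. Other causes were not tested.

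Members called between the lines under dexamethasone numbered 0 or 1 with 1 array left out, 0 to 2 with Enza_Ctrl replicate 2 and 1 further array left out, 2 in a fit of the compared groups alone (RRM2 and TK1) and 3 with array weights (those and MCM10). The RRM2 difference ran from 0.79 to 1.05 over these. Other comparisons called no member under any alternative run. Genes called in all between the lines numbered 49 under dexamethasone and 47 under DMSO, against 403 and 228 without Enza_Ctrl replicate 2, 767 and 252 with array weights, and 502 and 0 in separate fits. In LNCaPabl-Abi they numbered 5, against 25, 37 and 22, and 0 without Abi_Ctrl replicate 2.

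The numbers were not taken as pairs. The correlation of same-numbered arrays' deviations, taken over genes, was not over 0.1 in every pair. It ran from -0.04 to 0.30 over all genes and from -0.60 to 0.32 over the members, with Enza_Ctrl replicate 2 in some pairs. Taken over the members, it leaves out a shift that all of them share on an array. It therefore cannot decide whether the numbers pair the arrays for the members. The arrays numbered 3 were high together, and the unpaired fit holds that shift in its spread. The replicate block called no member with 12 arrays. With the replicate block and without Enza_Ctrl replicate 2, 2 members were called between the lines under dexamethasone (RRM2 and MCM10), and the medians were -0.089, 0.10 and 0.26 for the 3 comparisons that use Enza_Ctrl, with 540 genes called in all under dexamethasone, 303 under DMSO and 39 in LNCaPabl-Abi.

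Single members turned sign when 1 array was left out. In LNCaPabl-Abi with dexamethasone MCM2 ran from -0.39 to 0.19, MCM5 from -0.56 to 0.19, CDC6 from -0.27 to 0.077, TK1 from -0.47 to 0.18 and E2F1 from -0.57 to 0.44, each highest without Abi_Ctrl replicate 3. In LNCaPabl-Enza PCNA ran from -0.20, without Enza_Ctrl replicate 2, to 0.62, and was at -0.16 with the replicate block as well and at -0.19 with array weights. Under DMSO CDT1 ran from -0.22, without Enza_Ctrl replicate 3, to 1.19, and under dexamethasone MCM5 ran from -0.012, without Abi_Dex replicate 1, to 0.50. In that comparison CDC45 ran from -0.018 to 0.44, GINS4 from -0.22 to 0.31 and RRM1 from -0.049 to 0.40, each lowest without Enza_Dex replicate 3. Centring each array on its median gave 40.2% of all genes higher in LNCaPabl-Abi, against 50.4%, and 61.2% between the lines under dexamethasone, against 48.6%, where 0 and 29 members were higher.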
